A study of Mus musculus with 3 samples.

Results

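The glutathione transferase genes and 12 further genes of the NRF2 response were described in 3 RNA sequencing libraries of mouse stomach organoids. Members were taken by symbol from the deposited gene table: 26 genes of the cytosolic transferase classes alpha, mu, pi, theta, omega, zeta and kappa and of the microsomal transferases, without pseudogenes, and Nfe2l2, Keap1, Nqo1, Srxn1, Osgin1, Cbr1, Cbr3, Abcc1, Ephx1, Akr1b8, Blvrb and Aox1. This gave 38 of the 56691 genes in the table, and 34 of them reached an FPKM (counts scaled to exonic length and to the total of the library) of at least 1 in at least 1 library, as 13351 genes did in all. The other 4, Gsta5, Gsto2, Gstt4 and Aox1, are given by their counts.

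The organoids, epithelial structures grown in Matrigel in a medium for proliferation, came from the gastric corpus of mice of about 8 weeks. The Mist1- and Mist1+ libraries have a wild-type label and came from Mist1Cre/ERT2;RFPLSL mice, which carry an inducible Cre at the locus of Mist1, a transcription factor of secretory cells, and a red reporter that Cre switches on. The third, labelled Gpx4 KO-Mist1+, came from Gpx4F/F;Mist1Cre/ERT2;RFPLSL mice, in which Cre can remove a floxed Gpx4, so the Cre and the reporter are common to all 3. With 1 library per group nothing could be tested between groups, and differences stand without a check in replicates. The titles of all 3 samples end in P5, a mark that the titles do not spell out. How many animals a culture drew on is not given in the sources used here.

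Glutathione transferases join the tripeptide glutathione to electrophiles such as lipid aldehydes, quinones and drugs, and the microsomal members are membrane proteins that also reduce peroxides. Many of their genes, with Nqo1 and the carbonyl and aldo-keto reductases, are switched on by NRF2 (Nfe2l2), which KEAP1 holds back by handing it to a ubiquitin ligase of CUL3 and RBX1. Stressed cells release NRF2 from KEAP1, and it then binds antioxidant response elements together with small MAF proteins. Glutathione is also the substrate of GPX4, the peroxidase that removes lipid peroxides from membranes.

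The libraries held 14943918 (Mist1-), 16187378 (Mist1+) and 16396693 (Gpx4 KO-Mist1+) counts, and 3 counts of a gene with an exonic length of 1 kilobase equal 0.201, 0.185 and 0.183 FPKM. Intervals below are exact 95% intervals and cover counting error only. Gpx4 had 4399, 1998 and 2569 counts in Mist1-, Mist1+ and the library labelled as its knockout, so over the whole gene it was not lower there than in Mist1+. Its count checks no deleted exon, and the name is used here only as a label. All 9 gastric epithelial markers (such as Cdh1 and Cldn18) were well measured in each library, while the 6 fibroblast, 4 endothelial and 3 smooth muscle markers summed to at most 0.16 FPKM per list. Markers of pit cells, the surface mucous cells, summed to 713 FPKM in Mist1-, against 98 in Mist1+ and 90.4 for Gpx4 KO-Mist1+, and those of chief cells, the pepsinogen cells, to 2018, 3506 and 2641. Fewer cells of a type and less RNA per cell cannot be told apart in such bulk samples.

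The alpha class is where gene counts are hardest to assign, and its sequences show why. Gsta1 (chromosome 9, 78230656 to 78242684, plus strand, GRCm38) and Gm3776, a gene outside the rule at 78257129 to 78269166, have coding sequences that are 99.7% identical. Gsta1 and Gsta2 (78331018 to 78355788, minus strand) are 97.6% identical, and Gsta1 and Gsta5 97.0%. The stretch of 90 coding bases in which Gsta1 and Gsta2 differ most is printed below in lower case, with the bases that differ from Gsta1 in capitals.
Gsta1, coding bases 421 to 510: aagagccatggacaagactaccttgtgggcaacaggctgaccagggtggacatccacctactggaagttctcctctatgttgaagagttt
Gsta2, coding bases 421 to 510: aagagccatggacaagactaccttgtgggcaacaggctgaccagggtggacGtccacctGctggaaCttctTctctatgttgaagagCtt
Gsta5, coding bases 421 to 510: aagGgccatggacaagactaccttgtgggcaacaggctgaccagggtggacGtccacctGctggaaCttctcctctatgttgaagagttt
Gm3776, coding bases 421 to 510: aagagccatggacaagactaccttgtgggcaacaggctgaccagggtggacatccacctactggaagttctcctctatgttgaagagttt
Gsta2 differs from Gsta1 at 5 of the 90 bases, Gsta5 at 4 and Gm3776 at 0. The pi class has a similar pair, Gstp1 and Gstp2, with 98.1% identity, shown over its first 90 coding bases with differences from Gstp1 in capitals.
Gstp1, coding bases 1 to 90: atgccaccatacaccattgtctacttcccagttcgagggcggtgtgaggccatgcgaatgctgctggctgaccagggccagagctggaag
Gstp2, coding bases 1 to 90: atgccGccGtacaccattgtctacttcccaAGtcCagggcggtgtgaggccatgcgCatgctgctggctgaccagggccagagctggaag

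Of all windows of 100 bases in the transcripts of Gsta1 (GENCODE M21), 19.4% occur in no transcript of another gene, against 9.50% of windows of 50 bases and 31.6% of windows of 150. The length of the reads is not given in the sources used here. At 100 bases the share was 71.6% for Gsta2, 68.1% for Gsta5, 74.9% for Gstp1 and 53.1% for Gstp2. The other 30 measured members each had at least 80%, among them Gsta4, Gsto1, Gstt1 and Nqo1 at 100%. How a read was divided among copies depends on the authors' alignment, so single values of Gsta1, Gsta2, Gsta5, Gstp1 and Gstp2 are uncertain, and their sums are given beside them. Some members also overlap exons of another gene. On the same strand, Gm20441 covers 13.6% of the exonic bases of Gstt3 and Gm36961 3.69% of those of Ephx1, where reads are ambiguous with or without strand. On the opposite strand, which matters if strand was not used in counting, 4933431E20Rik covers 13.9% of Gstm5, Gm16754 10.9% of Keap1, and Pomt2 with Gm6566 12.2% of Gstz1. Their counts are uncertain to that extent.

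The library without the Mist1 label held the most transferase RNA. Summed over the 26 transferase genes, the level was 5841 FPKM in Mist1-, against 3304 in Mist1+ and 2308 for Gpx4 KO-Mist1+, so the sum was 1.77-fold lower in Mist1+ than in Mist1- and 1.43-fold lower again in Gpx4 KO-Mist1+. The FPKM columns also differ in their totals over all genes, at 379460, 302663 and 310243. At a common sum the difference between Mist1- and Mist1+ is therefore smaller, and that between Mist1+ and Gpx4 KO-Mist1+ slightly larger. A sum of FPKM is led by few genes: Gsta4, Gsto1 and Gstm1 made up 76.1%, 79.4% and 69.9% of it. The alpha class took 48.3%, 42.8% and 33.8% of the sum and the omega class 26.5%, 30.8% and 33.4%, so the alpha share was smallest and the omega share largest in Gpx4 KO-Mist1+. Theta genes, with low levels throughout, took 0.908%, 1.36% and 3.27%.

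**Figure D1:**
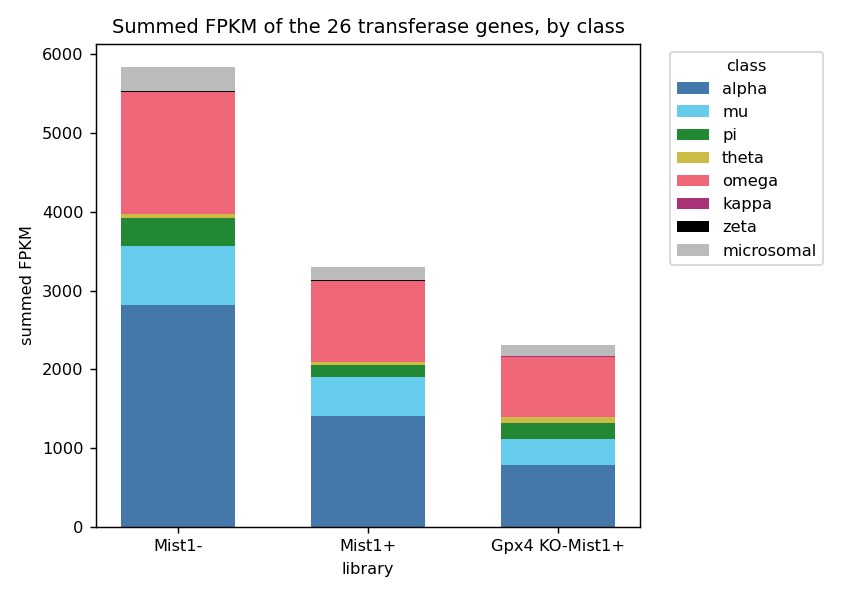
Summed FPKM (vertical axis) of the 26 transferase genes in each library, stacked by class; each bar is 1 library, with no error bar. The bars reach 5841, 3304 and 2308 FPKM, and the alpha (bottom) and omega classes hold most of each.

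By level, 27 of the 34 measured members were highest in Mist1-, 7 in Gpx4 KO-Mist1+ and 0 in Mist1+. Over all measured genes the shares were 32.5%, 30.5% and 36.8%. The lowest level stood in Mist1+ for 19 members (18.2% of all genes), in Gpx4 KO-Mist1+ for 14 (34.6%) and in Mist1- for 1 (45.7%), the efflux pump gene Abcc1. The members other than Abcc1 thus fall into those lowest in Mist1+ and those lowest in the library labelled Gpx4 KO-Mist1+, and the 2 sets cut across the classes. Some places rest on small differences: Cbr1 and Cbr3 fall in unlike sets, though both intervals between these libraries include no difference.

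**Figure D2:**
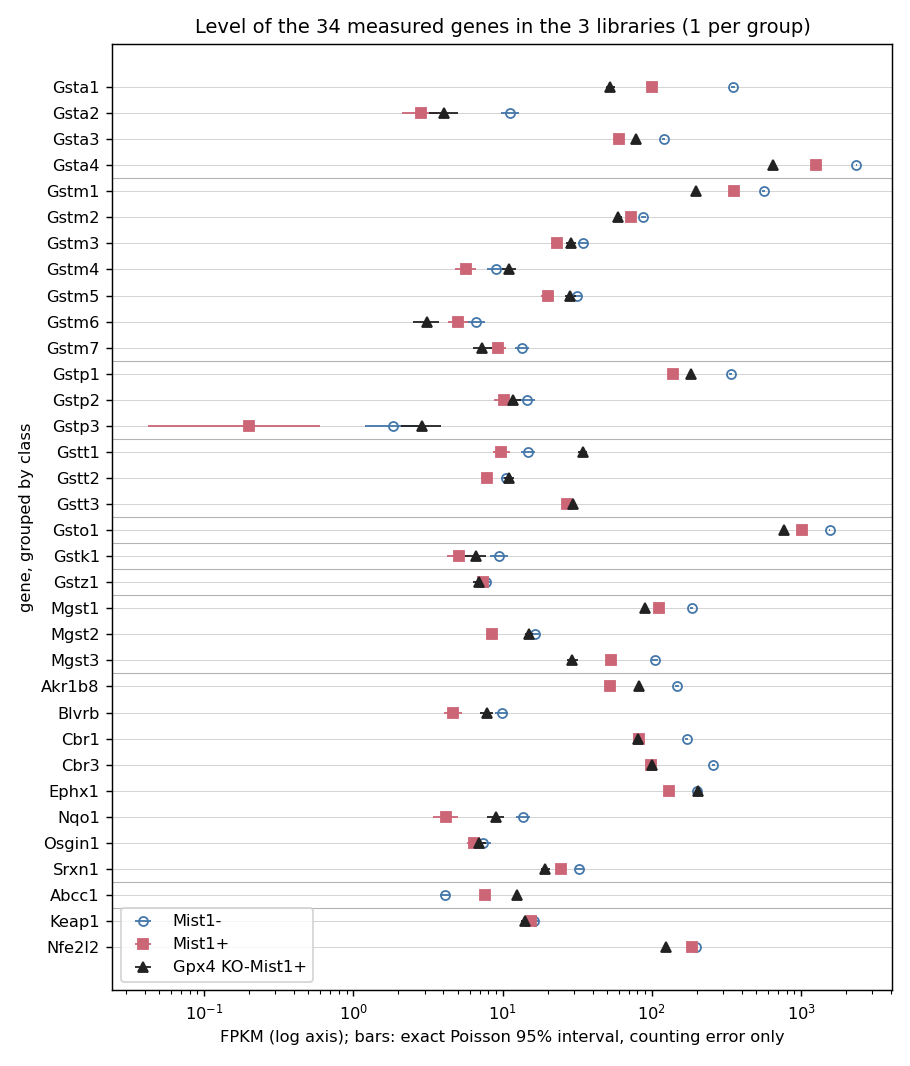
Level of each of the 34 measured members in FPKM (log axis) in Mist1- (open circles), Mist1+ (squares) and Gpx4 KO-Mist1+ (triangles), with exact Poisson 95% intervals. Open circles lie farthest right for 27 genes, and Gsta4 and Gsto1 lead in all 3 libraries.

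Mist1+ was first set against Mist1-, organoids with the label against those without it. Transferase and NRF2-linked genes were lower in Mist1+ almost throughout. Of the 34 measured members 33 had a log2 ratio below 0, beside 40.5% of all measured genes, where the ratio is taken of FPKM plus 1. The median over members was -0.62, and over all measured genes 0.15. At least 2-fold lower on this scale were 8 members (background 5.73%), namely Gsta1, Gsta2, Gstp1, Gstp3, Nqo1, Akr1b8, Cbr1 and Cbr3, and 0 were at least 2-fold higher (background 7.88%). With the FPKM columns rescaled to a common sum, 27 of 34 were below 0, beside 26.8% of all measured genes, whose median shifted by 0.25. The 2-fold split of members was then 6 lower to 1 higher, and the shares of all genes past 2-fold are not given for this scaling.

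Among alpha genes, which handle lipid peroxidation products and steroids, Gsta4 is the one best known for conjugating 4-hydroxynonenal, an aldehyde from oxidised lipids. Its level was 2341 FPKM in Mist1-, 1249 in Mist1+ and, lowest, 644 in Gpx4 KO-Mist1+. It was 1.87-fold (1.85 to 1.9) lower in Mist1+ than in Mist1-, and it was the most abundant member in those 2 libraries. Gsta1 was at 349, 100.3 and 52.6 FPKM, or 3.47-fold (3.28 to 3.68) lower in Mist1+. Gsta2 stood at 11.2, 2.83 and 4.04 FPKM, or 3.95-fold (2.91 to 5.44) lower. With the counts of Gsta1, Gsta2, Gsta5 and Gm3776 added, the 4 genes held 5982, 1979 and 1102 counts. Their sum was 3.27-fold (3.11 to 3.45) lower in Mist1+, so the direction did not hang on how the counted reads were divided among these copies. Reads that were counted on none of them are not in the sum. Gsta3, alone on chromosome 1 (21240589 to 21265661), was at 120.1, 60.5 and 78.1 FPKM and 1.99-fold (1.91 to 2.06) lower, just short of the 2-fold call. Gsta5 had 13, 9 and 12 counts.

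The 7 mu genes lie together on chromosome 3, 107895821 to 108044894, and all were lower in Mist1+ by a smaller amount, with log2 ratios from -0.65 to -0.27 and none past 2-fold. Gstm1, the most abundant of them, was at 559.5, 357 and 198.7 FPKM, or 1.57-fold (1.52 to 1.61) lower in Mist1+. Gstm2 was at 87.6, 72.7 and 59.6 FPKM, or 1.21-fold (1.13 to 1.28) lower, and its ratio turned above 0 with a common sum or with the length trend removed. Of the pi genes, Gstp1 was at 337, 138 and 182 FPKM and 2.44-fold (2.34 to 2.54) lower, and Gstp1 with Gstp2 2.39-fold (2.30 to 2.48) lower. Gstp3 had 25, 3 and 43 counts, so its lower value in Mist1+ rests on few reads (9.03-fold, 2.75 to 46.7).

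Gsto1, an omega transferase that reduces dehydroascorbate and mixed disulfides, was at 1548, 1018 and 772 FPKM, and 1.52-fold (1.5 to 1.54) lower in Mist1+. Its neighbour on chromosome 19, Gsto2, had 12, 12 and 20 counts. Gstk1, the kappa enzyme of mitochondria and peroxisomes, was 1.85-fold (1.47 to 2.34) lower. The 3 microsomal genes were all lower: Mgst1 at 184.8, 112.3 and 89.9 FPKM by 1.64-fold (1.58 to 1.71), Mgst2 at 16.5, 8.44 and 15.0 by 1.96-fold (1.75 to 2.19), and Mgst3 at 105.1, 53.2 and 29.4 by 1.97-fold (1.82 to 2.14). Gstz1, which serves tyrosine breakdown, and Gstt3 had intervals that include no difference (1.05-fold, 0.934 to 1.17, and 1.02-fold, 0.950 to 1.09), and both ratios turned above 0 with a common sum.

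Among the other NRF2-linked enzymes 8 of 8 measured were lower, 4 by at least 2-fold. Nqo1, the quinone reductase often used as a readout of NRF2, was at 13.7 FPKM in Mist1-, against 4.18 in Mist1+ and 9.03 for Gpx4 KO-Mist1+, which is 3.28-fold (2.62 to 4.13) lower in Mist1+. Akr1b8, an aldo-keto reductase for aldehydes, stood at 146.6, 52.6 and 82.3 FPKM and was 2.79-fold (2.61 to 2.97) lower. The neighbouring carbonyl reductase genes Cbr1 and Cbr3 on chromosome 16 were 2.09-fold (2.01 to 2.18) and 2.61-fold (2.47 to 2.75) lower. Blvrb, which reduces biliverdin and flavins, was 2.11-fold (1.79 to 2.51) lower in counts and short of the call with 1 added to FPKM. Ephx1, the microsomal epoxide hydrolase, was 1.55-fold (1.49 to 1.61) lower, and Srxn1, which repairs overoxidised peroxiredoxins, 1.33-fold (1.22 to 1.44). The interval of Osgin1 included no difference (1.15-fold, 0.973 to 1.36), and its ratio turned above 0 with a common sum.

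With no account taken of gene length, the regulators moved little beside most other members. Nfe2l2 stood at 196 FPKM in Mist1- against 186 in Mist1+, 1.06-fold (1.03 to 1.08) lower, and Keap1 at 16.3 and 15.5, with an interval that includes no difference (1.05-fold, 0.968 to 1.14). With a common sum the ratios of both turned above 0. A transcript level says nothing of how much NRF2 protein was held by KEAP1. Abcc1, the pump that exports glutathione conjugates, was the member that went the other way, at 4.08, 7.61 and 12.5 FPKM, or 1.86-fold (1.72 to 2.02) higher in Mist1+.

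**Figure D3:**
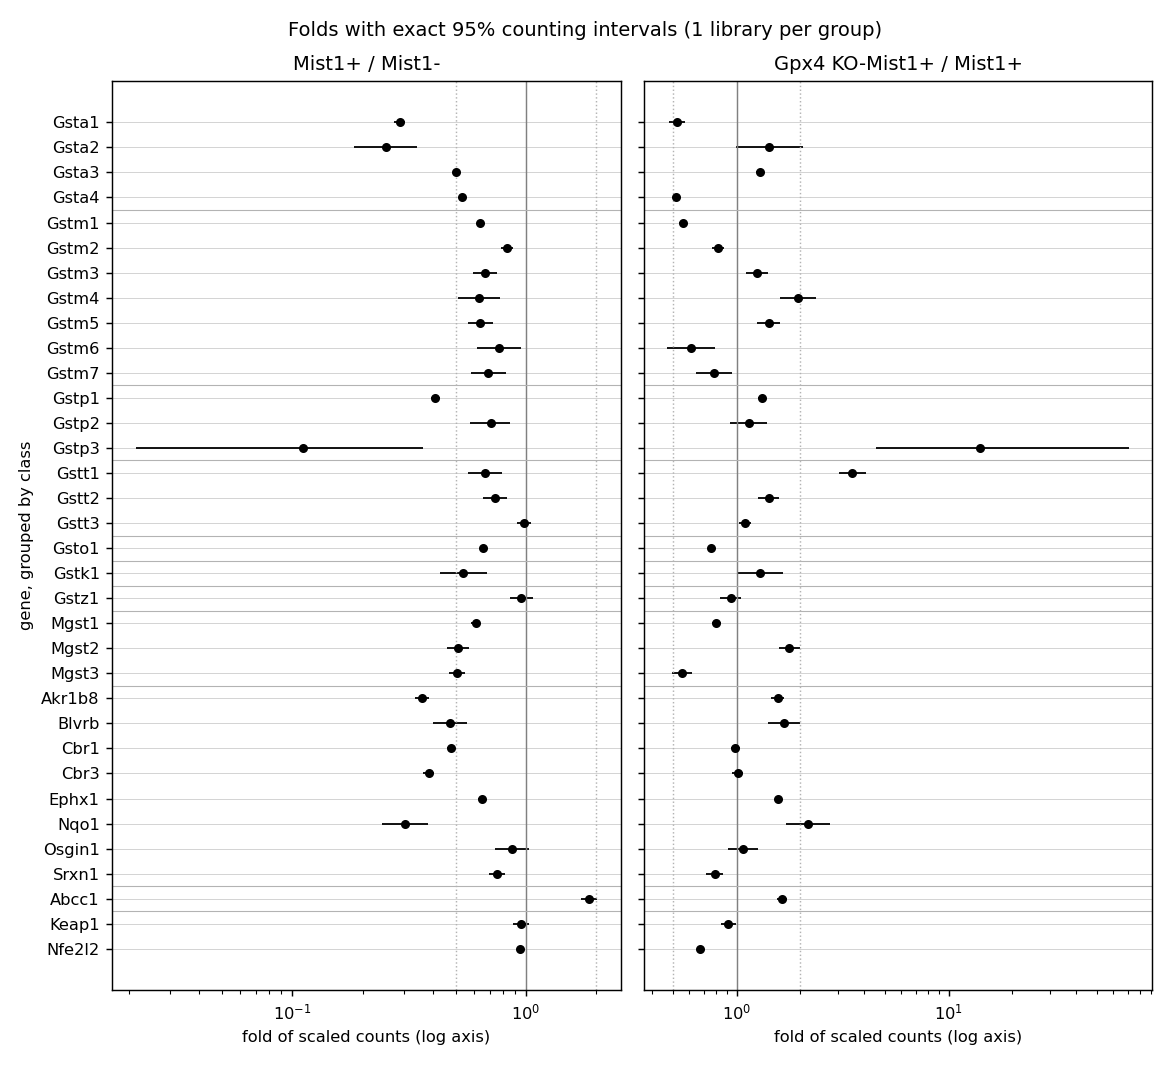
Fold of counts scaled to column totals (log axis) for each measured member, Mist1+ against Mist1- on the left and the library labelled Gpx4 KO-Mist1+ against Mist1+ on the right, with exact 95% counting intervals; dotted lines mark 2-fold. On the left Abcc1 alone lies right of the solid line at 1, and on the right Gstt1 and Gstp3 lie farthest right.

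Gene length goes with this comparison. Over the 13351 measured genes log2 ratios went up with exonic length (Spearman rho 0.49), as a description across genes that share their libraries. Members are short, with a median of 1693 exonic bases beside 3766 over all measured genes. Among the 2590 genes in the central length range of the members (their quartiles, 1350.5 to 2810.5 bases) the median log2 ratio was -0.29, with 72.0% below 0 and 7.18% at least 2-fold lower. With the trend on length removed, 33 of 34 members were below the trend, beside 49.5% of all measured genes. The median of members was -0.31, and 5 were at least 2-fold below the trend. Abcc1, the longest member with 15092 exonic bases, then had a ratio of -0.02, so its higher level was as large as the trend of genes of its length. Gsta1 was still at -1.34, Gsta2 at -1.21, Gsta3 at -1.15, Nqo1 at -1.08 and Akr1b8 at -1.03, while 6 of 7 mu genes lay between -0.21 and 0. The regulators Keap1 and Nfe2l2 were then at -0.29 and -0.17, so they no longer stood apart from members such as Gsto1 (-0.29) and Gstm1 (-0.21). Pit cell markers were lower in Mist1+ too (3 of 3 measured), and their part in these values was not tested.

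**Figure D4:**
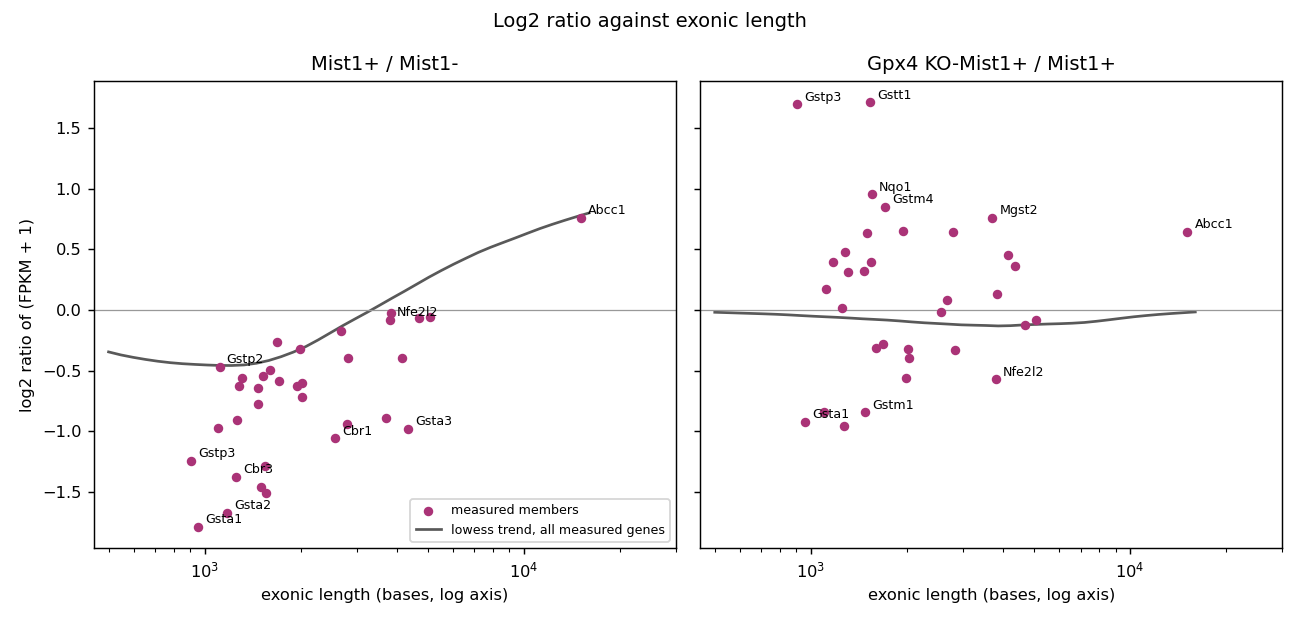
Log2 ratio of FPKM plus 1 against exonic length (log axis) for the 34 measured members (points), with the lowess trend over all 13351 measured genes (line), Mist1+ against Mist1- on the left and Gpx4 KO-Mist1+ against Mist1+ on the right. On the left the line climbs with length and 33 of 34 points lie under it, and on the right it is nearly flat.

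Between the 2 libraries with the Mist1 label, Gpx4 KO-Mist1+ and Mist1+, the members divided. Of 34, 20 had a ratio above 0 (background 40.7%) and 14 below (background 58.8%), with a median of 0.15 beside -0.09 over all genes. At least 2-fold higher were 2 members, Gstt1 and Gstp3 (background 4.81%), and 0 were at least 2-fold lower (background 2.74%). The trend on length was nearly flat in this pair (rho -0.02).

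Higher in Gpx4 KO-Mist1+ were genes across several classes. Gstt1, a theta transferase for small halogenated compounds, had 337 counts in Mist1-, against 243 in Mist1+ and 863 for Gpx4 KO-Mist1+, or 14.8, 9.82 and 34.5 FPKM. That is 3.51-fold (3.04 to 4.06) higher than in Mist1+ and the largest difference in this pair among members with at least 50 counts in each library. Its neighbours within the theta cluster on chromosome 10 (75774115 to 75837424) differed far less, with Gstt3 at 1.10-fold (1.03 to 1.17) and Gstt2 at 1.42-fold (1.26 to 1.59), and Gstt4 had 0, 0 and 4 counts, where 0 allows up to 3. Gstp3 was 14.2-fold (4.53 to 71.3) higher, from 3 and 43 counts. Nqo1 was 2.16-fold (1.71 to 2.75) higher in counts, though its ratio with 1 added to FPKM, 0.95, stayed under the call. With a pseudocount of 0.1 it was 1.09, with median ratio scaling 1.02 and with the length trend removed 1.03, each past the call. With a pseudocount of 5 or a common sum it stayed under the call, so the call of Nqo1 depends on the processing.

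Gstm4 was 1.94-fold (1.60 to 2.37) higher, Mgst2 1.78-fold (1.59 to 1.98), Blvrb 1.68-fold (1.41 to 2.0), Abcc1 1.64-fold (1.55 to 1.74), Ephx1 1.57-fold (1.51 to 1.64) and Akr1b8 1.56-fold (1.46 to 1.68). Aox1, an aldehyde oxidase under the level filter, had 36, 52 and 133 counts and was 2.52-fold (1.82 to 3.55) higher. The carbonyl reductases did not share this: Cbr1 was at 81.9 and 80.8 FPKM (0.987-fold, 0.941 to 1.03) and Cbr3 at 99.1 and 100.4 (ratio of counts 1.01, interval 0.953 to 1.08). They stayed at the Mist1+ level, well under the 171 and 258 FPKM of Mist1-.

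Lower in Gpx4 KO-Mist1+ were the 3 most abundant transferases of Mist1+, Gsta4, Gsto1 and Gstm1, among others. Gsta4 was 1.94-fold (1.9 to 1.98) lower than in Mist1+, Gsta1 1.91-fold (1.75 to 2.08), Mgst3 1.81-fold (1.63 to 2.02), Gstm1 1.80-fold (1.74 to 1.86) and Gsto1 1.32-fold (1.30 to 1.34). The 4 alpha copies added together were 1.82-fold (1.69 to 1.96) lower, and Gm3776 on its own 1.96-fold (1.64 to 2.35). Abundance and direction did not always go together: Gstp1, next in level in Mist1+, was 1.32-fold (1.26 to 1.38) higher in Gpx4 KO-Mist1+, and Gsta3 1.29-fold (1.24 to 1.35) higher. Gsta2 alone had 54 and 78 counts, with an interval that includes no difference (1.43-fold higher, 0.995 to 2.06). Nfe2l2 itself was at 186 FPKM in Mist1+ and 125 in Gpx4 KO-Mist1+, 1.49-fold (1.45 to 1.53) lower, and Keap1 stood at 15.5 and 14.2 FPKM, a ratio of -0.12 that turned above 0 with the length trend removed.

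The mu cluster shows the division within 1 stretch of chromosome 3. In the order of their positions, the log2 ratios of Gpx4 KO-Mist1+ against Mist1+ were 0.48 for Gstm5, -0.32 for Gstm7, -0.56 for Gstm6, 0.31 for Gstm3, -0.28 for Gstm2, -0.84 for Gstm1 and 0.85 for Gstm4. The genes at both ends and Gstm3 were thus higher and the other 4 lower, and no counting interval of the 7 folds included 1. Gstm1 and Gstm4, at opposite ends of this range, are next to each other, at 108012255 to 108017973 and 108040408 to 108044894, both on the minus strand. Mucous neck cell markers summed to 1059, 731 and 1477 FPKM in Mist1-, Mist1+ and Gpx4 KO-Mist1+, a sum led by Gkn3 (861, 624 and 1319.5). In Gpx4 KO-Mist1+ against Mist1+, 4 of 5 markers were above 0, with Muc6 and Cftr little changed and A4gnt lower. In Mist1+ against Mist1-, 3 of 5 were above 0 although the sum was lower. The part of these markers in the members' values was not tested.

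Set against Mist1-, the library labelled Gpx4 KO-Mist1+ had 9 members at least 2-fold lower (background 8.56%) and 2 at least 2-fold higher (background 11.6%), and 27 of 34 below 0 (background 45.2%), with a median of -0.55. With a common sum 21 were below 0. This pair shares a library with each of the others, so it is no separate support for them. The lowest were Gsta1 at 6.63-fold (6.16 to 7.15), Gsta4 at 3.63-fold (3.56 to 3.71), Mgst3 at 3.58-fold (3.25 to 3.95) and Gstm1 at 2.82-fold (2.72 to 2.91) lower. Gsta2, Cbr3, Cbr1, Mgst1 and Gsto1 were the other 5. Higher were Abcc1, by 3.06-fold (2.84 to 3.29), and Gstt1, by 2.33-fold (2.06 to 2.66). The level of Ephx1 was close to that of Mist1-, at 203 and 200 FPKM (1.02-fold, 0.983 to 1.05). Length went with this pair as well (rho 0.39). Among the 2590 genes in the central length range of the members, 69.7% were below 0, 14.6% at least 2-fold lower and 5.41% at least 2-fold higher. With the trend removed 23 of 34 members were below it, beside 50.4% of all measured genes. Of the members 4 were then at least 2-fold lower and 1 higher.

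The antioxidant response element, the binding site of NRF2, was searched in the RefSeq promoters (GRCm38.p6) of the members as TGACNNNGC on both strands, from 250 bases before to 50 after each start site. Promoters were on hand for 34 of the 38 members. Of these 6 held the motif (17.6%), beside 14% of all genes in the promoter table, so the members stood close to the background. Each match is shown with 10 bases on either side, motif in capitals, read along the strand of the gene.
Gsta3, chromosome 1, 21240454 to 21240482, plus strand: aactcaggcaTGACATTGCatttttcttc
Nfe2l2, chromosome 2, 75704885 to 75704913, minus strand: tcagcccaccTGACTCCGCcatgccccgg
Srxn1, chromosome 2, 152105542 to 152105570, plus strand: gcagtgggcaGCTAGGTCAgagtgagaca
Gstm5, chromosome 3, 107895802 to 107895830, plus strand: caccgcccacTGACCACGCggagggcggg
Gstm7, chromosome 3, 107931725 to 107931753, minus strand: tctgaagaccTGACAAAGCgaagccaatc
Mgst1, chromosome 6, 138140461 to 138140489, plus strand: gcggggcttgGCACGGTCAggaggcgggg
In Srxn1 and Mgst1 the motif reads on the opposite strand, as GCNNNGTCA. Of these 6 genes 6 were below 0 in Mist1+ against Mist1-, as were 33 of all 34 measured members, so the motif sets them apart in no way here. Against Mist1+ the library labelled Gpx4 KO-Mist1+ was higher for Gsta3 and Gstm5 and lower for Nfe2l2, Srxn1, Gstm7 and Mgst1. A match is a string of letters in a short window and shows no binding, and a gene without one may carry the element elsewhere.

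The wider pathway was followed with 6 lists, whose counts stand beside 5.73% of all measured genes at least 2-fold lower, 7.88% at least 2-fold higher and 40.5% below 0. In Mist1+ against Mist1-, genes of the thioredoxin system, which reduces protein disulfides and peroxides, were lower for 6 of 9 measured, 1 of them by 2-fold, with a median of -0.23. Txn1 (thioredoxin) stood at 570 FPKM in Mist1- against 274 in Mist1+, 2.08-fold (2.0 to 2.15) lower, and Prdx1 at 721 and 377, 1.91-fold (1.88 to 1.95) lower. Prdx5 and Prdx6 were 2.03-fold (1.88 to 2.2) and 1.75-fold (1.69 to 1.81) lower. Genes that supply NADPH were lower for 5 of 7 (median -0.48), led by Pgls at 1.86-fold (1.70 to 2.02) and Taldo1 at 1.73-fold (1.66 to 1.80). Haem and iron genes were lower for 4 of 6 (median -0.69), with the ferritin light chain gene Ftl1 2.26-fold (2.22 to 2.31), the heavy chain gene Fth1 1.55-fold (1.51 to 1.59), Hmox1 1.84-fold (1.54 to 2.2) and Blvra 1.76-fold (1.54 to 2.0) lower.

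Glutathione supply genes were lower for 9 of 13 without a 2-fold call in either direction (median -0.20), and other NRF2-linked enzymes and transporters for 18 of 25, 2 by 2-fold (median -0.40). The list of NRF2 partners and regulators was above 0 for 8 of 11 (median 0.36). In it 2 of 11 were at least 2-fold higher. Bach1, the repressor that competes with NRF2, stood at 3.83 FPKM in Mist1- against 8.68 in Mist1+, 2.26-fold (2.0 to 2.57) higher, Gsk3b, a kinase that marks NRF2 for breakdown, was 2.27-fold (2.10 to 2.45) higher, and Rbx1 was 1.96-fold (1.83 to 2.10) lower. Length differs among these genes as well, and its part in the lists was not tested.

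In Gpx4 KO-Mist1+ against Mist1+ the list medians lay between -0.05 and 0.07, beside -0.09 over all genes, and single genes stood out. The 2-fold call was met upward by 4.81% and downward by 2.74% of all measured genes, and with lists this short 1 gene makes a large share. In the list of partners 1 of 11 was at least 2-fold higher, Maff, a small MAF partner, at 4.24 FPKM in Mist1+ and 17.3 in Gpx4 KO-Mist1+ (4.08-fold, 3.46 to 4.83). Of 13 glutathione supply genes 3 were at least 2-fold higher. They were Chac1, which breaks glutathione down (8.97-fold, 5.82 to 14.5), and the cystine importer genes Slc7a11 (3.32-fold, 3.11 to 3.54) and Slc3a2 (2.15-fold, 2.01 to 2.30), while the synthetase gene Gss was 1.19-fold (1.12 to 1.26) lower. Among haem and iron genes 1 of 6 was at least 2-fold higher, Hmox1, at 7.09 and 19.1 FPKM (2.69-fold, 2.28 to 3.17). Me1, malic enzyme, was 1.94-fold (1.83 to 2.06) higher and Idh1 1.68-fold (1.63 to 1.73) lower, with no 2-fold call among 7 NADPH genes or 9 thioredoxin genes.

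In the last list, of 25 genes, 2 were called higher and 3 lower at the 2-fold threshold, beside the same 4.81% and 2.74% over all genes, so the count higher was near the background. Ephx2, the soluble epoxide hydrolase, was at 1.09 FPKM in Mist1+ and 6.70 in Gpx4 KO-Mist1+, 6.13-fold (4.44 to 8.63) higher, and the transporter gene Abcc5 was 3.02-fold (2.81 to 3.25) higher. Mt2, a metallothionein that binds zinc and copper, stood at 2252, 1237 and 467 FPKM in Mist1-, Mist1+ and Gpx4 KO-Mist1+, so it was 2.65-fold (2.56 to 2.74) lower than in Mist1+, and Akr1c14, an aldo-keto reductase for steroids, was 2.83-fold (2.45 to 3.28) lower. The third lower gene was Mt1, the neighbouring metallothionein.

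**Figure D5:**
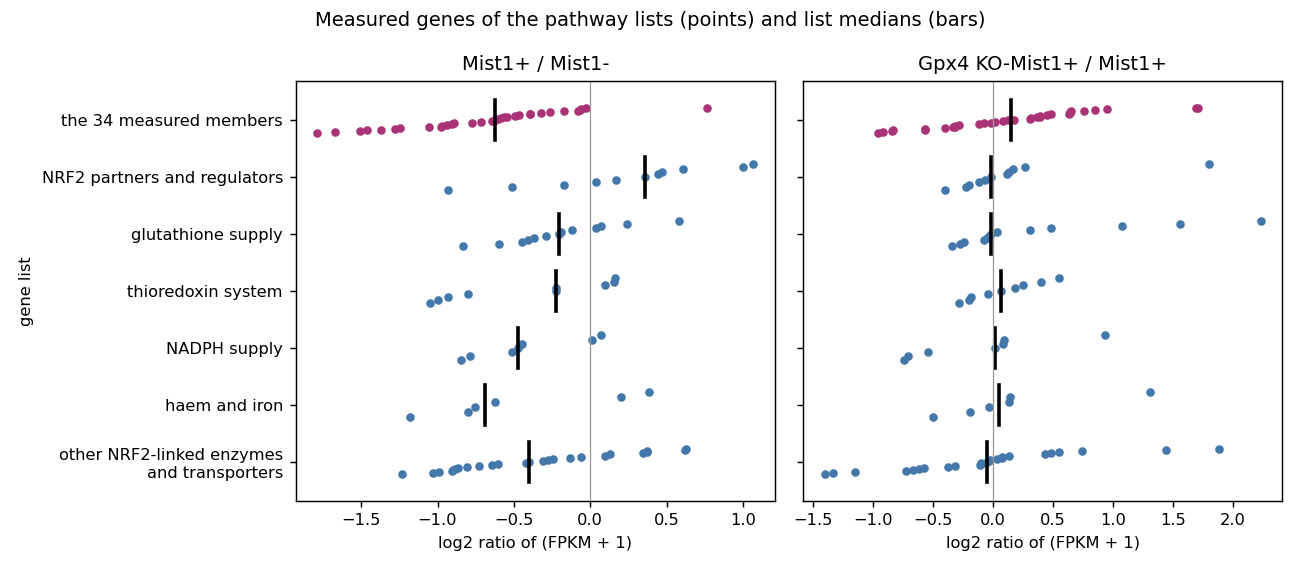
Log2 ratio of FPKM plus 1 for each measured gene (points) of the 34 members and of the 6 pathway lists, with list medians as black bars, Mist1+ against Mist1- on the left and Gpx4 KO-Mist1+ against Mist1+ on the right. On the left the median of NRF2 partners and regulators, 0.36, lies above 0 and the other medians below, and on the right every median lies between -0.05 and 0.15.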

How the data were processed

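RNA from 3 organoid cultures was sequenced, 1 library per group. Per the submitters' processing notes, cutadapt 1.9.1, HISAT2 2.2.1 and HTSeq 0.6.1 were used on GRCm38.p5. Per the file headers the authors deposited read counts per gene and FPKM. FPKM was within 2.77% of count over exonic length and column total for genes of at least 50 counts. The table's start and end matched GENCODE M21 (GRCm38) for 0 of 38 members, although gene spans and exonic lengths were the same for 38, so positions are those of M21. Strand use and read length are not given in the sources used here.

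A gene counted as measured from FPKM 1 upward in any library. Log2 ratios used a pseudocount of 1 and calls a 2-fold threshold. Folds of scaled counts have exact binomial and levels exact Poisson 95% intervals, and 3 counts was the limit for a count of 0. Interval code was tested on simulated data. No p-value was computed. The alternatives tried were median ratio scaling, FPKM columns rescaled to 1 common sum, a pseudocount of 0.1 or 5, a filter at FPKM 5 or none, a 1.5-fold threshold, summed alpha copies, and the length trend removed (lowess, fraction 0.3). A restriction to members with at least 80% unique 100-base windows was chosen after seeing the data. Members, lists and tests were chosen with earlier results of these data known. Every member could be named, and of each pathway list the 4 genes with the largest ratio in a main comparison. Naming Mt1, Apoa1, Alb, Vil1, Cd68, Cdx2, Fabp2 and Lct followed their values. Tools were Biopython 1.88, statsmodels 0.14.6, scipy 1.17.1, matplotlib 3.10.9, pandas 2.3.3 and numpy 2.4.6 under Python 3.11.15.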

Additional observations from a re-analysis of the deposited data

Results flagged for a closer look

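Reads were also counted on 3 rows that the choice of members leaves out and that are close copies of members. Gm3776, the near copy of Gsta1, had 792 counts in Mist1-, against 363 in Mist1+ and 188 for Gpx4 KO-Mist1+, and 14.5% of its 100-base windows are found in no other gene. Gstp-ps, a processed pseudogene of the pi class on chromosome 1, had 886, 320 and 444 counts, with 48.9% of such windows its own. Gstm2-ps1, a processed pseudogene on chromosome 5, had 143, 81 and 58 counts, with 87.1%. All 3 were highest in Mist1-, above the limit of 3 counts that a count of 0 allows, and whether their reads came from the copies themselves was not tested.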

How the results depend on the processing

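Of 810 member values under the alternatives, 621 stayed within the counting interval of the reported value, 189 lay outside it, and 0 of those called at 2-fold turned in sign. A change of filter leaves a member's ratio as it was, and summing alpha copies changes, among the members kept, only that of Gsta1. The unchanged values stay within the interval by construction, so the 621 are no measure of stability on their own. Below the call, 21 ratios turned in sign under at least 1 alternative. Beside those named with their values above, they were, for Gpx4 KO-Mist1+ against Mist1-, Gstm3, Gstm5, Osgin1, Gstp2, Mgst2, Gstz1, Keap1, Gstt2, Gstt3 and Ephx1, and, against Mist1+, Cbr1, Cbr3 and Gstz1. For Mist1+ against Mist1-, 8 members were at least 2-fold lower and 0 higher. The count lower was 13 with median ratio scaling, 5 with the length trend removed, 20 at 1.5-fold and 5 with members of unique windows only, and the count higher was 1 with a common sum and at 1.5-fold. The median of -0.62 was -0.30 with a common sum, -0.85 with median ratio scaling and -0.31 with the length trend removed. For Gpx4 KO-Mist1+ against Mist1+, with 2 higher and 0 lower, 1 was higher with a pseudocount of 5 and with FPKM of at least 5, 3 with a pseudocount of 0.1, median ratio scaling or the length trend removed, and 9 were higher and 4 lower at 1.5-fold. For Gpx4 KO-Mist1+ against Mist1-, with 2 higher and 9 lower, 0 were higher with a pseudocount of 5. With the length trend removed 1 was higher and 4 lower, and 16 were lower at 1.5-fold. The median of -0.55 was -0.38 without a filter, -0.27 with a common sum, -0.68 with median ratio scaling and -0.32 with the length trend removed. Beyond the looser threshold and the smaller sets, the cause was not tested. No paired analysis was possible because each group is 1 library. Depth limits Gstp3, Gsta5, Gsto2 and Gstt4 most.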

Other observations

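Some markers of other organs were measured in these organoids, and among them Apoa1 and Vil1 had their lowest level in Mist1+. Apoa1, an apolipoprotein gene of liver and intestine, was at 652 FPKM in Mist1-, against 189.8 in Mist1+ and 586 for Gpx4 KO-Mist1+. Alb, the serum albumin gene of hepatocytes, was at 28.8, 22.3 and 15.9 FPKM. Vil1, the gene of the brush border protein villin, was at 32.8, 14.2 and 85.0 FPKM, while the intestinal factor gene Cdx1 had 0 counts in all 3 libraries. Of the other intestinal markers, Cdx2 had 0, 0 and 7 counts, Fabp2 1, 5 and 6, and Lct 1, 4 and 1. Cd68, a lysosomal membrane gene high in macrophages, was at 4.37, 5.06 and 24.4 FPKM, and the general leukocyte gene Ptprc had 1, 1 and 0 counts. These genes were singled out after their values were seen.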
